A study of Mus musculus with 30 samples.

Results

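A set of 10 genes of the early transcriptional response were followed, Egr1, Egr2, Egr3, Nr4a1, Nr4a2, Nr4a3, Klf2, Klf4, Klf6 and Ier2, in mouse dendritic cells that met soluble protein or dying cells. They were chosen by name as rows of the count table, and all 10 were found among its 25611 gene rows and among the 14808 genes that were tested. The cells were dendritic cells grown from bone marrow for 6 to 7 days with 200 ng/ml of FLT3L, the cytokine that drives dendritic cell development. They came from mice wild type for Rubcn (WT) or with a knockout of Rubcn (KO), the gene of the autophagy regulator Rubicon; the sources used here do not give strain, age, sex or the kind of knockout allele. Cells of each genotype received no treatment or, for 30 min or 4 h, either ovalbumin protein (OVA) or apoptotic Jurkat cells, which makes 10 groups of 3 libraries and 30 libraries in all. Jurkat is a human leukaemic T-cell line. All groups shared the FLT3L culture, and the labels give no time for the untreated cells, so comparisons against untreated cells also hold whatever handling the treated cells received.

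The members are transcription factors or nuclear proteins of a class in which many genes are switched on soon after a stimulus, without new protein synthesis. EGR1, EGR2 and EGR3 are zinc-finger activators whose genes answer kinase signals through serum response factor. NR4A1, NR4A2 and NR4A3 are orphan nuclear receptors that act without a known hormone and are controlled mainly by their own amount; their genes are classical targets of cAMP and calcium signals through CREB and MEF2. KLF2, KLF4 and KLF6 are Krüppel-like zinc-finger factors: KLF2 is linked to quiescence and restraint of inflammation, KLF4 to the differentiation of monocytes and of a subset of dendritic cells, and KLF6 to inflammatory gene expression in myeloid cells. IER2 is a small nuclear protein of the same early class. In dendritic cells NR4A3 is known for its part in maturation and migration.

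The stretch before the start of a gene is where such signals are read, so the 250 bases before the annotated start are shown for the 5 members whose matches stood out most: the NR4A genes, which all carried the same repeated short element, Egr2 with its serum response element, and Klf2 with its MEF2 site. Sequences were taken from RefSeq (GRCm38.p6, the build of the mm10 coordinates in the counts), 5′ to 3′ on the strand of the gene, and capitals mark every match to a searched motif. Promoters of 7 of the 10 members were searched. Egr1 was left out of the search, and for Egr3 and Ier2 no promoter matching their start in the counts was found.
Nr4a1 (chr15:101266596-101266845, plus strand): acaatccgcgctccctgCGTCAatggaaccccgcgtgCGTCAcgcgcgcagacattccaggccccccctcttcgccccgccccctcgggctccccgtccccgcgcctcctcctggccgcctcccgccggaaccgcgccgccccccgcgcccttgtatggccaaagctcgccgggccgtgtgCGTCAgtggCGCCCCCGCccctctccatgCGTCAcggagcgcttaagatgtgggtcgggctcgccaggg
Nr4a2 (chr2:57124004-57124253, minus strand): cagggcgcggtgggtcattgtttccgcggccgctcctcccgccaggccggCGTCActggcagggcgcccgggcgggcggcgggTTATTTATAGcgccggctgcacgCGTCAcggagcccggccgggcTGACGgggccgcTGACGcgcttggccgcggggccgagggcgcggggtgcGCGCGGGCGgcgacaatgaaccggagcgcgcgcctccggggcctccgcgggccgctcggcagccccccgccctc
Nr4a3 (chr4:48045055-48045304, plus strand): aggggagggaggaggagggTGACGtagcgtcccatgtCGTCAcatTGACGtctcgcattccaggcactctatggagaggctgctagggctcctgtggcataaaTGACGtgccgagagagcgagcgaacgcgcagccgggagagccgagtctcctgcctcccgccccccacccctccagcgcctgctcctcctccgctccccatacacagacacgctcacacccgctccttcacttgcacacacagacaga
Egr2 (chr10:67537619-67537868, plus strand): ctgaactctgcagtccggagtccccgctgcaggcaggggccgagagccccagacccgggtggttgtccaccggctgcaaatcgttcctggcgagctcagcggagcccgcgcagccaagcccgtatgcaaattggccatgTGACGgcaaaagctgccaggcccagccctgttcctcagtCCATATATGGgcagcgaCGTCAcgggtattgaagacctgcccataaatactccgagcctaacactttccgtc
Klf2 (chr8:72318812-72319061, plus strand): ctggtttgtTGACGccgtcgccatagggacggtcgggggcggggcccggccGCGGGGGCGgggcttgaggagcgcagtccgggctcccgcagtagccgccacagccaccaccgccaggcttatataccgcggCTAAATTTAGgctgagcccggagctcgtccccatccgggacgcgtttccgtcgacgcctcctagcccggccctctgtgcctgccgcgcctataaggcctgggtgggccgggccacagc

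The motifs searched on both strands were the full cAMP response element TGACGTCA, its short form TGACG (contained in the full one), the EGR site GCGNGGGCG, the NR4A site AAAGGTCA, TATAAA, the CArG box, the MEF2 site and the NF-kB site. Nr4a1, Nr4a2 and Nr4a3 each held 4 copies of TGACG or its complement. Of 32851 promoters in the same table, 17.8% held at least 1 copy and 45 (0.137%) held 4 or more; among the 9178 promoters with at least 60% G and C, 0.37% held 4 or more. The 4 copies lay at different places in the 3 genes, between bases -231 and -143 in Nr4a3 and between bases -233 and -36 in Nr4a1. Egr2 held a CArG box, the serum response factor site, from base -72 to base -63, as did 1.47% of all promoters. It was flanked by a TGACG copy on either side. A MEF2 site stood in Klf2, from base -118 to base -109, and in Nr4a2, from base -167 to base -158, against 2.92% of all promoters; the site in Nr4a2 contains a match to TATAAA on the other strand, a motif found in 12.4% of promoters. EGR sites, present in 4.7% of all promoters and in 14.5% of the G and C rich ones, were found in Nr4a1, Nr4a2, Klf2 and Klf4, with 2 places in Klf4. In Klf6 there was no match to any of the motifs, and TGACGTCA, AAAGGTCA and the NF-kB site matched in none of the 7 windows. A match is a run of letters and was not tested for binding.

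**Figure D1:**
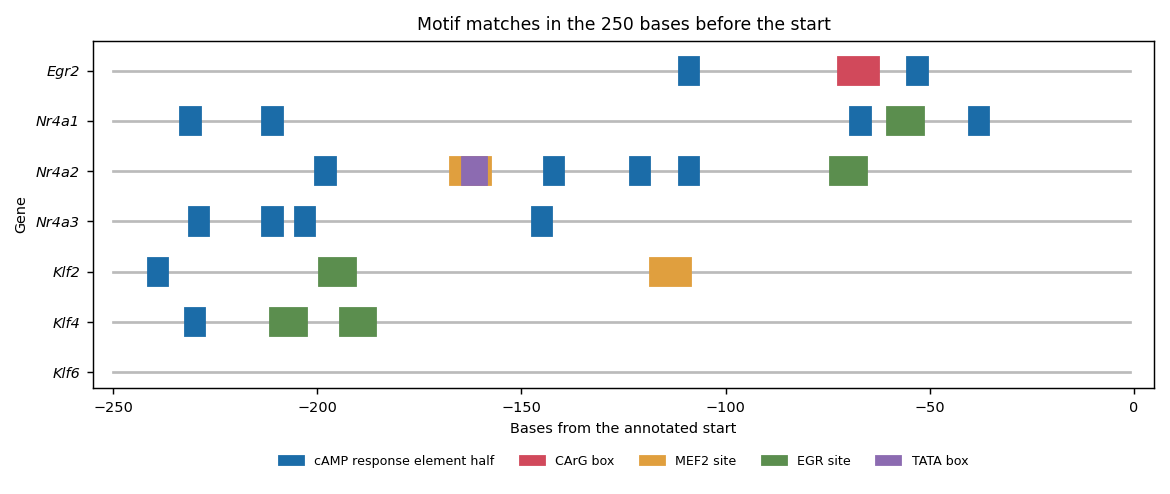
Motif matches in the 250 bases before the start of 7 members, 1 line per gene; the x axis is the distance in bases from the annotated start and each coloured block is a match on either strand. Nr4a1, Nr4a2 and Nr4a3 each show 4 blocks of the short cAMP response element, Egr2 shows a CArG box, and Klf6 shows no block.

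Total counts per library ran from 9.73 M counts (KO, OVA 30 min, replicate 3) to 51.6 M, with a median of 44.9 M and the next shallowest at 38.7 M. Values are CPM, counts normalised for depth, on library sizes scaled with TMM factors, which were 0.765 to 0.842 in the libraries with Jurkat cells for 4 h and 1.03 to 1.07 in the others. Without treatment Rubcn was counted at 98.9 CPM in WT and 72.8 CPM in KO cells, and its mean was lower in KO than WT in each of the 5 conditions; counts over the whole gene do not check a partial deletion. All 9 plasmacytoid and all 7 type 1 conventional dendritic cell markers were above 1 CPM in every group, and so were all 7 monocyte or macrophage markers. In untreated WT cells these 3 lists summed to 3082, 2245.5 and 2778 CPM on average, so passing 1 CPM does not tell these cell types apart. A single library stood apart, KO with Jurkat cells for 30 min, replicate 1. Of 68 genes at least 32-fold higher at 4 h than at 30 min of Jurkat cells in WT, it was above both other replicates in 68, with a median ratio of 2.95 to their mean, against 0 to 41 genes in each of the other 17 untreated and 30 min libraries; the libraries at 4 h were not compared in this way. Nr4a3 is the member this touches most, and its results are given with and without that library. The labels do not say whether the 3 libraries of a group came from separate mice or cultures, so p-values measure only the spread between these libraries. In such bulk samples fewer cells of a type and less RNA per cell cannot be told apart.

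Human Jurkat RNA is present in the treated wells, and the sources used here do not say how the counting treated human reads. Of 18 T-lineage markers, 7 were above 1 CPM in untreated WT cells, 13 with Jurkat cells for 30 min and 16 for 4 h, while their summed level ran from 271 to 280, from 336 to 345 and from 309 to 345 CPM over the libraries of these groups. In KO cells 8, 13 and 15 of them were above 1 CPM. Cd3e went from 0.0778 to 2.05 and 6.09 CPM and Lck from 2.84 to 16.5 and 43.4 CPM, while Cd3d stayed near 0, at 0.11, 0.11 and 0.04 CPM. Their part in the members' responses to Jurkat cells was not tested.

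The 10 genes lie apart in the genome, as given in the mm10 intervals of the table: Egr2 at chr10:67537869-67542188, Egr3 at chr14:70077445-70082613, Nr4a1 at chr15:101266846-101274794, Nr4a2 at chr2:57107226-57124003, Nr4a3 at chr4:48045305-48086446, Klf2 at chr8:72319062-72321654, Klf4 at chr4:55527137-55532475, Klf6 at chr13:5861489-5870393 and Ier2 at chr8:84661331-84662852. Each is annotated as protein coding in GENCODE, and no exon of another gene overlaps theirs. In untreated WT cells, levels per kilobase of exon were highest for the KLF genes and Ier2, at 50.05 CPM per kb for Klf6, 41.4 for Klf4, 37.7 for Ier2 and 28.2 for Klf2. The NR4A genes, Egr2 and Egr3 were lower, from 5.24 CPM per kb for Nr4a1 down to 1.02 for Egr3 and 0.938 for Nr4a2. After 4 h with Jurkat cells Nr4a3, at 3.45 CPM per kb in untreated WT cells, stood first, at 259 CPM per kb, followed by Klf6 at 226.

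Egr1 (chr18:34861207-34864956), at 10.95 CPM per kb in untreated WT cells, is likewise protein coding with no overlapping exon.

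**Figure D2:**
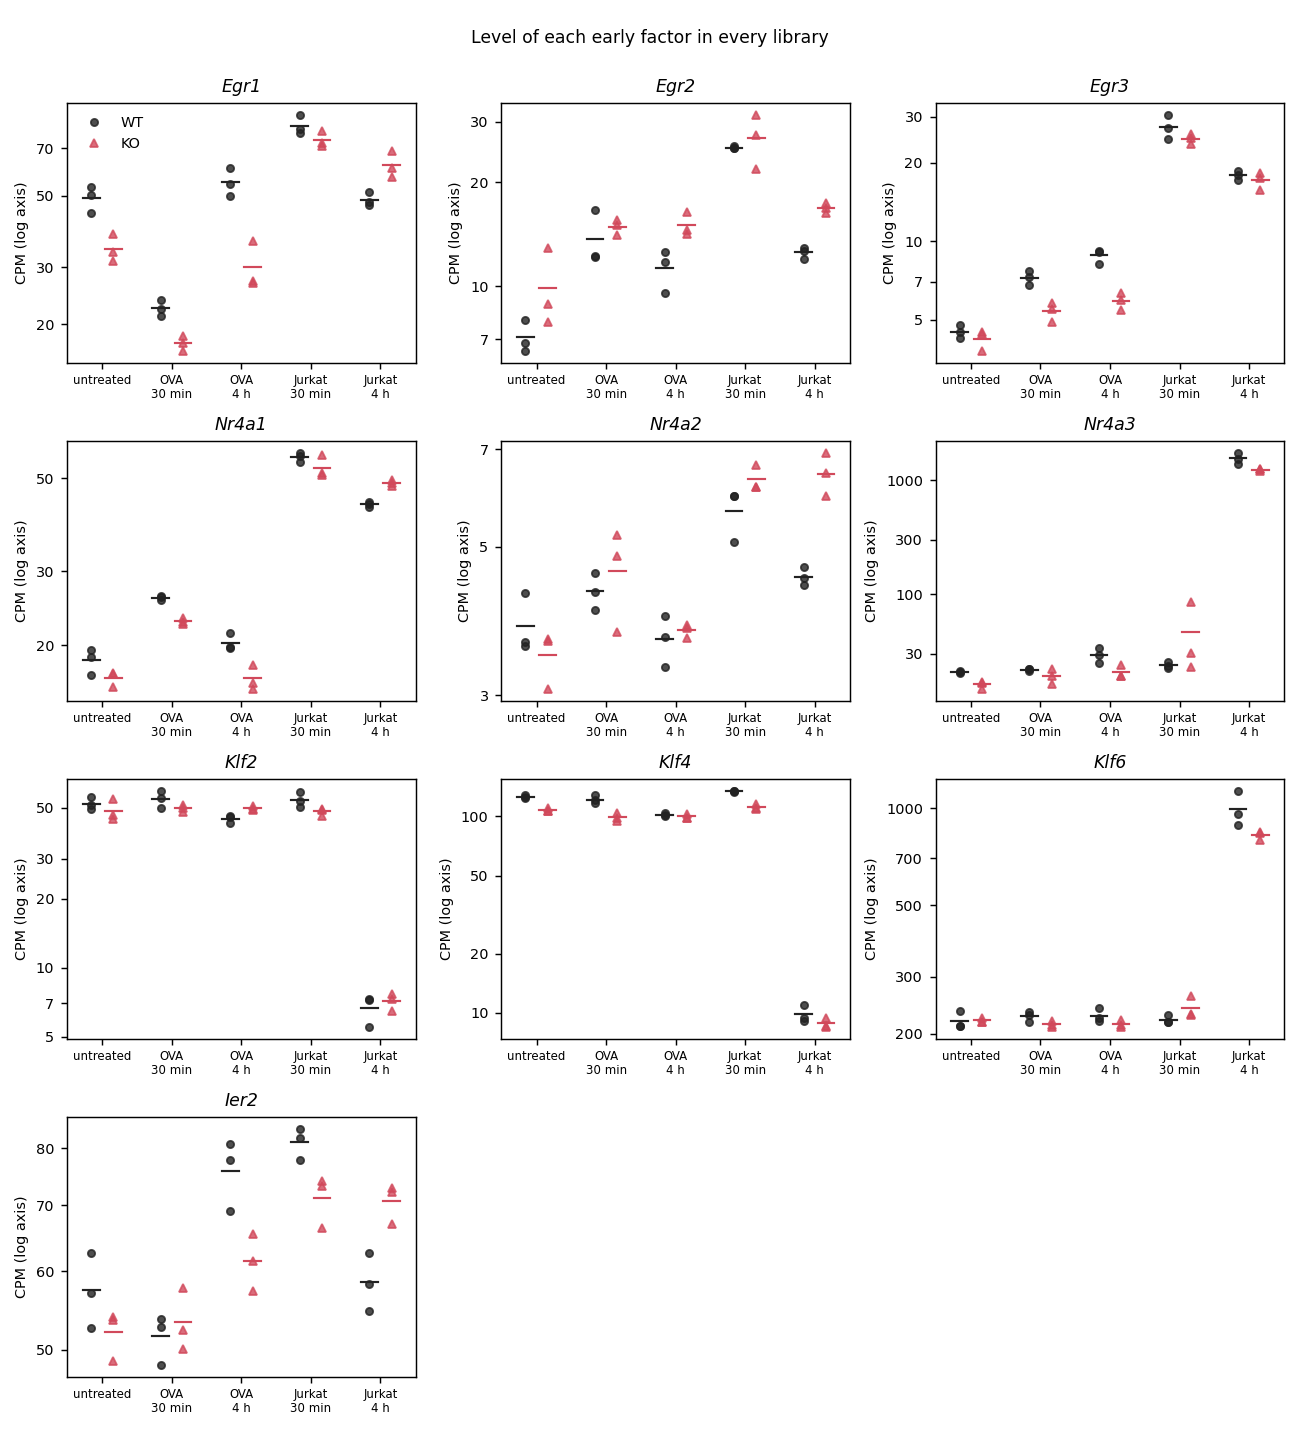
Level of each member in every library, in CPM on a log axis (y), by treatment (x); circles are WT libraries, triangles KO libraries, short lines the means of 3. Nr4a3 and Klf6 stand far above all other groups, and Klf2 and Klf4 far below, with Jurkat cells for 4 h; the KO triangle for Nr4a3 at 85.1 CPM with Jurkat cells for 30 min is the library that stood apart.

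The members fell into distinct patterns. With Jurkat cells the 3 EGR genes, Nr4a1, Nr4a2 and Ier2 rose within 30 min, and at 4 h all 6 were lower again in WT and the EGR genes and Nr4a1 in KO, while Nr4a3 and Klf6 rose by 4 h, and Klf2 and Klf4 dropped steeply by 4 h. After 30 min with Jurkat cells, 6 of the 10 members passed the test in WT cells, each of them higher, where 14.2% of the 14808 genes tested were higher and 14.5% lower (edgeR quasi-likelihood F test, Benjamini-Hochberg adjusted p, FDR, under 0.05). In KO cells 7 members passed at 30 min, each higher, against 8.72% of all genes higher and 8.26% lower. After 4 h, 6 members were higher and 2 lower in WT, where 38.9% of all genes were higher and 40.6% lower, so the members' count is near the background. In KO cells 8 were higher and 2 lower at 4 h, against 37.5% and 41%. In the 6 comparisons with Jurkat cells at 4 h against untreated cells, 30 min or OVA, 47.5% to 48.9% of all calls were higher, and on total counts 26.5% to 29.2%; against untreated cells 5 members were then higher and 4 lower in WT, and 7 and 2 in KO. With OVA fewer members passed. In WT cells 3 were higher and 1 lower at 30 min, against 5.51% and 5.15% of all genes, and 3 were higher and 2 lower at 4 h, against 11.9% and 11.7%. In KO cells 2 were higher and 1 lower with OVA at 30 min, against 1.88% and 1.88%, and 3 passed at 4 h, each higher, against 5.94% higher and 5.69% lower. The 4 treatments of a genotype share their untreated libraries.

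**Figure D3:**
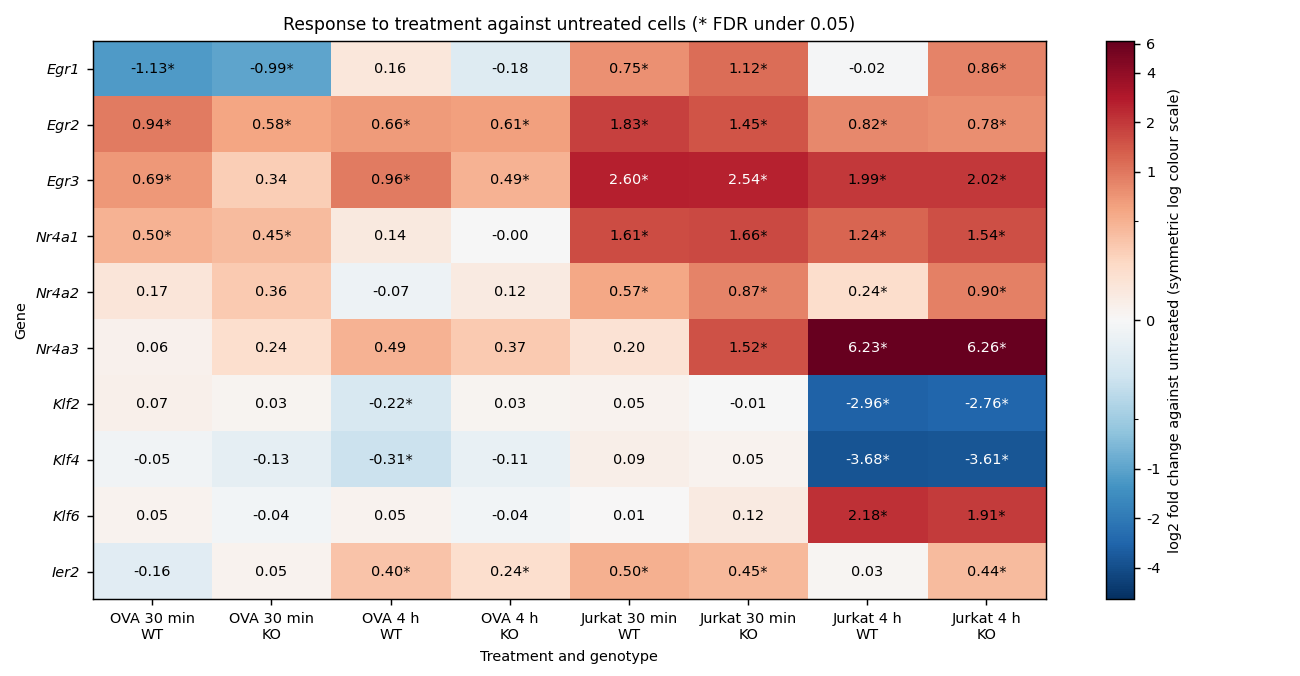
Log2 fold change of each member (rows) against untreated cells of the same genotype for the 4 treatments in WT and KO (columns); red is higher, blue lower, and an asterisk marks FDR under 0.05. The largest values are 6.23 and 6.26 for Nr4a3 and -3.68 and -3.61 for Klf4, both with Jurkat cells for 4 h.

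Egr3 had the steepest early rise. It stood at 4.25, 4.49 and 4.78 CPM in untreated WT libraries and at 24.6, 27.0 and 30.4 CPM after 30 min with Jurkat cells. In KO libraries it went from 4.49, 4.42 and 3.81 CPM to 24.9, 23.6 and 25.6 CPM. Every Jurkat library was above every untreated library in both genotypes. The rise was 6.07-fold in WT (log2 2.60, SE 0.084, FDR 1.8e-19) and 5.83-fold in KO (log2 2.54, SE 0.085, FDR 3.15e-19). By 4 h it stood at 17.9, 17.2 and 18.6 CPM in WT and at 15.7, 17.4 and 18.3 CPM in KO, lower than at 30 min (log2 -0.61 in WT, FDR 1.23e-08, and -0.52 in KO, FDR 2.42e-07) and still 3.97-fold and 4.05-fold above untreated cells. With OVA it was raised 1.61-fold at 30 min (log2 0.69, SE 0.093, FDR 1.24e-05) and 1.95-fold at 4 h (log2 0.96, SE 0.091, FDR 3.79e-09) in WT. The KO cells showed 1.40-fold at 4 h (log2 0.49, SE 0.096, FDR 0.000885), while the value at 30 min, 1.27-fold, did not pass (FDR 0.0588).

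Egr2, an EGR factor that also restrains lymphocyte activation, also rose with Jurkat cells and with OVA. Untreated WT libraries held 7.99, 6.86 and 6.49 CPM and WT libraries with Jurkat cells for 30 min held 25.4, 25.1 and 25.1 CPM. The KO libraries went from 12.9, 8.87 and 7.85 CPM to 21.9, 27.4 and 31.4 CPM, again with no overlap. Its rise at 30 min was 3.55-fold in WT (log2 1.83, SE 0.14, FDR 7.24e-11) and 2.73-fold in KO (log2 1.45, SE 0.13, FDR 4.41e-09). At 4 h it had come down to 12.5 ± 0.45 CPM in WT and 16.9 ± 0.56 CPM in KO (SD, n = 3), 1.76-fold and 1.71-fold above untreated cells. OVA raised it 1.92-fold at 30 min and 1.58-fold at 4 h in WT (FDR 6.94e-05 and 0.0014). In KO the log2 values were 0.58 and 0.61 (FDR 0.0203 and 0.00328), and the call at 30 min was lost without KO OVA 30 min replicate 2 or 3 or KO untreated replicate 2 or 3 (log2 0.44 to 0.56, FDR 0.0577 to 0.133).

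Egr1, the founding EGR factor, was the only member called in opposite directions with OVA and with Jurkat cells at 30 min, in WT and in KO alike. Untreated WT libraries held 44.2, 53.1 and 50.1 CPM, those with OVA for 30 min 23.7, 21.2 and 22.3 CPM, and those with Jurkat cells for 30 min 80.3, 77.9 and 88.9 CPM. The same order held in KO. Untreated KO libraries held 38.0, 31.3 and 33.5 CPM, OVA took them to 17.5, 16.5 and 18.3 CPM, and Jurkat cells took them to 71.1, 72.7 and 79.4 CPM. The 3 groups did not overlap in either genotype. Against untreated cells OVA lowered Egr1 at 30 min by 1.13 (SE 0.097, FDR 5e-09) on the log2 scale in WT, and to 0.503 of the untreated level in KO (FDR 1.07e-06). Jurkat cells raised it 1.68-fold in WT (log2 0.75, SE 0.091, FDR 4.27e-07) and 2.17-fold in KO (log2 1.12, SE 0.093, FDR 5.9e-10). By 4 h of OVA it was back at 61.0, 54.3 and 50.02 CPM in WT, with no call against untreated cells (log2 0.16, FDR 0.207), and at 36.3, 26.8 and 27.2 CPM in KO (log2 -0.18, FDR 0.267; without KO OVA 4 h replicate 1, -0.34 and FDR 0.0219). At 4 h of Jurkat cells WT held 51.2, 47.7 and 46.8 CPM, at the untreated level (log2 -0.02, FDR 0.886), and KO held 60.8, 57.1 and 68.9 CPM, 1.82-fold above it (log2 0.86, SE 0.094, FDR 1.9e-09). On total counts the WT value at 4 h became -0.42 (FDR 0.000202), in a comparison where that scaling shifts the median of all genes by -0.40.

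Nr4a1, the NR4A receptor best known from T-cell receptor signalling and monocyte survival, rose at 30 min and kept most of its rise at 4 h. Untreated libraries held 17.0, 18.8 and 19.4 CPM in WT and 15.9, 17.2 and 17.1 CPM in KO. With Jurkat cells for 30 min they held 54.5, 57.4 and 56.4 CPM in WT and 50.9, 51.3 and 56.6 CPM in KO. The 2 genotypes overlapped at 30 min, and every treated library was above every untreated one. The rise was 3.05-fold in WT (log2 1.61, SE 0.051, FDR 1.8e-19) and 3.17-fold in KO (log2 1.66, SE 0.051, FDR 4.71e-20). At 4 h it was still 2.36-fold up in WT, at 43.9, 42.6 and 43.5 CPM, and 2.91-fold up in KO, at 49.4, 47.8 and 48.7 CPM. OVA raised Nr4a1 1.41-fold in WT and 1.37-fold in KO at 30 min (FDR 2.08e-07 and 6.55e-06). At 4 h of OVA it was at 20.3 ± 0.89 CPM in WT and 16.7 ± 1.16 CPM in KO, with no call against untreated cells (FDR 0.0551 and 1). For WT this call depended on the setting: FDR was 0.0387 with the stricter filter and 0.0294 without WT untreated replicate 3.

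Nr4a2, which is best known from dopamine neurons, was the lowest of the 10 genes per kilobase in untreated WT cells and had the smallest range over the groups among the NR4A genes. Untreated WT libraries held 3.61, 4.27 and 3.55 CPM and KO libraries 3.61, 3.07 and 3.65 CPM. After 30 min with Jurkat cells WT held 5.95, 5.08 and 5.95 CPM and KO 6.15, 6.63 and 6.14 CPM. These were rises of 1.49-fold in WT (log2 0.57, SE 0.10, FDR 8.96e-05) and 1.83-fold in KO (log2 0.87, SE 0.10, FDR 3.15e-07) with no overlap. At 4 h KO libraries remained at 6.45, 5.96 and 6.91 CPM (log2 0.90, SE 0.10, FDR 4.59e-09). The WT libraries were at 4.49, 4.67 and 4.39 CPM (log2 0.24, SE 0.11, FDR 0.0396), a call that 5 of 6 left-out libraries ended, all but WT untreated replicate 2 (log2 0.19 to 0.26, FDR 0.0532 to 0.149), and that turned to -0.16 (FDR 0.18) on total counts. OVA gave no call for Nr4a2 at either time in either genotype; in KO at 30 min FDR was 0.0639, or 0.00718 without KO OVA 30 min replicate 1.

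Nr4a3 behaved unlike both its relatives. At 30 min in WT it changed little, with 20.7, 20.9 and 20.4 CPM untreated and 23.6, 25.5 and 22.3 CPM with Jurkat cells. The joint fit gave no call (log2 0.20, SE 0.26, FDR 0.615). Every treated library was above every untreated one, and a fit of only the groups compared gave a call (log2 0.20, SE 0.060, FDR 0.0342). By 4 h Nr4a3 had reached 1395, 1729 and 1527 CPM in WT and 1237, 1205 and 1249 CPM in KO. Untreated KO libraries held 17.0, 16.4 and 14.7 CPM. The rise by 4 h was 75.0-fold in WT (log2 6.23, SE 0.29, FDR 4.8e-18) and 76.5-fold in KO (log2 6.26, SE 0.29, FDR 5.69e-18), the largest response of any member. At 30 min the KO libraries held 85.1, 23.1 and 30.2 CPM, the first being the library that stood apart. With it the KO rise at 30 min was 2.87-fold (log2 1.52, SE 0.26, FDR 0.000107), and without it the value was 0.73 on the log2 scale (SE 0.12, FDR 0.000116). The same library widens the error of Nr4a3 in every comparison of the joint fit. OVA for 4 h gave 33.5, 29.0 and 25.0 CPM in WT and 23.9, 19.2 and 19.2 CPM in KO, above every untreated library of the same genotype; FDR was 0.172 and 0.427 with the library and 0.00088 (log2 0.49, SE 0.11) and 0.0238 (log2 0.38, SE 0.11) without it.

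Klf2 and Klf4 fell together. Klf4 held 124, 126 and 129 CPM in untreated WT libraries and 9.05, 11.03 and 9.40 CPM after 4 h with Jurkat cells. In KO it went from 106, 107 and 110 CPM to 8.59, 8.50 and 9.47 CPM. Its level fell by 3.68 on the log2 scale in WT (SE 0.055, FDR 5.59e-29) and by 3.61 in KO (SE 0.056, FDR 1.12e-28). Klf2 went from 49.3, 51.4 and 55.7 CPM to 7.32, 5.53 and 7.24 CPM in WT and from 46.3, 44.5 and 54.7 CPM to 6.503, 7.28 and 7.67 CPM in KO. It fell by 2.96 on the log2 scale in WT (SE 0.092, FDR 3.41e-22) and by 2.76 in KO (SE 0.090, FDR 1.18e-21). Neither gene had a call against untreated cells at 30 min of Jurkat cells in either genotype (FDR 0.135 to 0.966). With OVA at 4 h both were lower in WT, Klf4 at 104, 101 and 101 CPM (log2 -0.31, SE 0.044, FDR 5.13e-06) and Klf2 at 45.8, 45.4 and 42.9 CPM (log2 -0.22, SE 0.072, FDR 0.0245). The Klf2 call was lost without WT OVA 4 h replicate 3 (log2 -0.19, FDR 0.0952) or WT untreated replicate 3 (log2 -0.17, FDR 0.14). In KO neither passed with OVA at 4 h (FDR 0.124 and 0.831). Markers of type 2 conventional dendritic cells, 7 of 7 above 1 CPM in every group, summed to between 1584 and 1637 CPM in WT libraries without treatment and to between 872 and 934 CPM with Jurkat cells for 4 h. In KO these ranges were 1667 to 1798 and 1026 to 1093 CPM. The type 1 markers were lower at 4 h as well, with mean sums of 2245.5 and 1716 CPM in WT and 2324 and 1699 CPM in KO. The plasmacytoid markers were higher, at 3082 and 4378 CPM in WT and 2716 and 3560 CPM in KO. Of 6 endothelial markers, a cell type in which KLF2 and KLF4 are prominent, 4 were above 1 CPM in every group. Their sum went from 187 to 194 CPM to 1125 to 1379 CPM in the same WT groups, of which Kdr was 28.01 and 1074 CPM on average, while Emcn and Tek stayed at or under 0.05 CPM. The part of these cells in the fall of Klf2 and Klf4 was not tested.

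Klf6 rose late, as Nr4a3 did. Untreated libraries held 236, 212 and 212 CPM in WT and 225, 218 and 218 CPM in KO. After 4 h with Jurkat cells they held 890, 1131 and 960 CPM in WT and 838, 798 and 842 CPM in KO. The rise was 4.52-fold in WT (log2 2.18, SE 0.064, FDR 9.14e-23) and 3.75-fold in KO (log2 1.91, SE 0.063, FDR 1.91e-21). In the other 8 groups its means lay between 214 and 240 CPM, and no other treatment gave it a call against untreated cells.

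Ier2 followed the early EGR genes with a smaller amplitude. In WT it went from 52.6, 62.6 and 57.1 CPM untreated to 77.8, 81.9 and 83.7 CPM with Jurkat cells for 30 min, and in KO from 48.7, 53.5 and 54.0 CPM to 66.5, 73.3 and 74.1 CPM. The rises were 1.41-fold (log2 0.50, SE 0.068, FDR 2.7e-06) and 1.37-fold (log2 0.45, SE 0.068, FDR 2.29e-05), with no overlap. At 4 h WT libraries were back at 58.3, 54.7 and 62.7 CPM (log2 0.03, FDR 0.719; on total counts -0.37, FDR 2.38e-05), while KO libraries held 67.0, 72.8 and 72.3 CPM (log2 0.44, SE 0.069, FDR 1.34e-06; on total counts 0.10, FDR 0.184). OVA raised Ier2 only at the later time among the 2 tested: 1.32-fold in WT at 4 h (FDR 5.69e-05), with 80.7, 77.8 and 69.1 CPM, and 1.18-fold in KO (FDR 0.0202), with 65.6, 57.4 and 61.4 CPM. The KO call was lost without KO OVA 4 h replicate 1 or 3 or KO untreated replicate 1 (log2 0.19 to 0.24, FDR 0.0563 to 0.144).

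Both times were also compared directly. For Jurkat cells all 10 members changed between 30 min and 4 h in WT, 2 higher and 8 lower, where 37.9% of all genes were higher and 40.7% lower. In KO 2 were higher and 6 lower, against 36.8% and 40.3%. The 2 higher members were Nr4a3 and Klf6 in both genotypes; Nr4a2 and Ier2 fell in WT (log2 -0.33 and -0.47) and had no call in KO (log2 0.03 and -0.01). In KO the falls of Egr1 (log2 -0.26, FDR 0.0124) and Nr4a1 (log2 -0.12, FDR 0.0208) were small, and their size depended on the scaling. On total counts, which shift the median of all genes by -0.33 here, they were -0.58 (FDR 1.32e-06) and -0.45 (FDR 1.8e-09), and Ier2 and Nr4a2 were also called lower (log2 -0.34 and -0.30, FDR 7.23e-05 and 0.0073). The calls of Egr1 and Nr4a1 were lost with DESeq2 (log2 -0.20 and -0.06, FDR 0.0585 and 0.285), without KO Jurkat 30 min replicate 3 (FDR 0.0603 and 0.164) and without KO Jurkat 4 h replicate 2 (FDR 0.0737 and 0.0609). For OVA, 3 members were higher and 3 lower at 4 h than at 30 min in WT, against 14.9% and 14.7% of all genes. Egr1 recovered 2.46-fold (log2 1.30, SE 0.097, FDR 1.09e-10) and Ier2 rose 1.47-fold, while Nr4a1, Klf2 and Klf4 were lower. The rise of Egr3, the remaining call (log2 0.28, FDR 0.0138), was lost without WT OVA 30 min replicate 3 or WT OVA 4 h replicate 1 or 2 (log2 0.23 to 0.26, FDR 0.0547 to 0.0699). In KO, Egr1 was higher (log2 0.81, SE 0.11, FDR 8.22e-06) and Nr4a1 lower (log2 -0.45, SE 0.056, FDR 3.42e-06), 1 member in each direction against 6.5% and 6.28% of all genes.

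Against OVA at the same time, which leaves the untreated cells out, Jurkat cells gave the higher early levels. At 30 min 7 members passed in WT and 8 in KO, each higher with Jurkat cells. Of all genes 11.9% were higher and 12.3% lower in WT, and 5.3% and 4.92% in KO. Egr3 was 3.77-fold and Egr1 3.68-fold higher in WT, and 4.59-fold and 4.31-fold higher in KO. Klf4 was the smallest of these calls, at 1.10-fold in WT and 1.13-fold in KO. It was lost without WT Jurkat 30 min replicate 2 or 3 or WT OVA 30 min replicate 1 or 3 (log2 0.11 to 0.14, FDR 0.0552 to 0.112), and in KO without Jurkat 30 min replicate 2 or OVA 30 min replicate 2 (log2 0.15 in both, FDR 0.0716 and 0.0877). For Nr4a2 the KO call (log2 0.51, FDR 0.00193) was lost without KO OVA 30 min replicate 1 (log2 0.35, FDR 0.0538). Nr4a3 was higher with Jurkat cells at 30 min in KO (log2 1.28, FDR 0.00211), at 0.49 (FDR 0.0164) without the library that stood apart.

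At 4 h, 5 members were higher with Jurkat cells than with OVA and 3 lower in WT, against 37.2% and 40.3% of all genes, and 7 were higher and 2 lower in KO, against 36.3% and 40.1%. Nr4a3 was 53.2-fold and 59.1-fold higher, Klf6 4.36-fold and 3.85-fold higher, and Nr4a1 2.14-fold and 2.91-fold higher in WT and KO. Klf2 stood at 0.15 and 0.144 and Klf4 at 0.0961 and 0.0884 of their level with OVA. Egr1 and Ier2 were called differently in the 2 genotypes, a difference that was not itself tested. Egr1 had no call in WT (log2 -0.18, FDR 0.0806; -0.25 and FDR 0.0264 without WT OVA 4 h replicate 3) and was 2.06-fold higher in KO (log2 1.04, SE 0.095, FDR 5.35e-11). Ier2 was lower in WT (log2 -0.37, SE 0.069, FDR 1.76e-05) and higher in KO (log2 0.20, SE 0.069, FDR 0.0095). That KO value was 0.15 (FDR 0.0756) without KO OVA 4 h replicate 2 and -0.14 (FDR 0.0679) on total counts. Nr4a2 in WT (log2 0.31, FDR 0.0107) went to 0.24 (FDR 0.0645) without WT OVA 4 h replicate 2 and to -0.08 (FDR 0.525) on total counts.

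The knockout was compared with WT in each condition, the study's main contrast. The direction of the members' differences depended on the condition. The largest, 1.94-fold for Nr4a3 with Jurkat cells at 30 min, rests on the library that stood apart; without it the log2 value was 0.17 (FDR 0.456). In untreated cells 1 member was higher in KO and 2 lower, where 6% of all genes were higher and 3.97% lower. With OVA at 30 min 4 members passed, each lower in KO, against 6.25% of all genes higher and 6.13% lower. With OVA at 4 h 1 was higher and 4 lower, against 6.22% and 6.35%. With Jurkat cells at 30 min 1 was higher, Nr4a3, and 1 lower, against 5.58% and 3.67%, and at 4 h 5 were higher and 1 lower, against 9.37% and 13.5%. The split of all calls depends on scaling in 3 of these conditions. On total counts the share of calls that were higher in KO went from 50.5% to 63.8% with OVA at 30 min, from 49.5% to 64.5% with OVA at 4 h and from 40.9% to 74.8% with Jurkat cells at 4 h. In none of these 5 comparisons did a called member change direction on total counts.

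**Figure D4:**
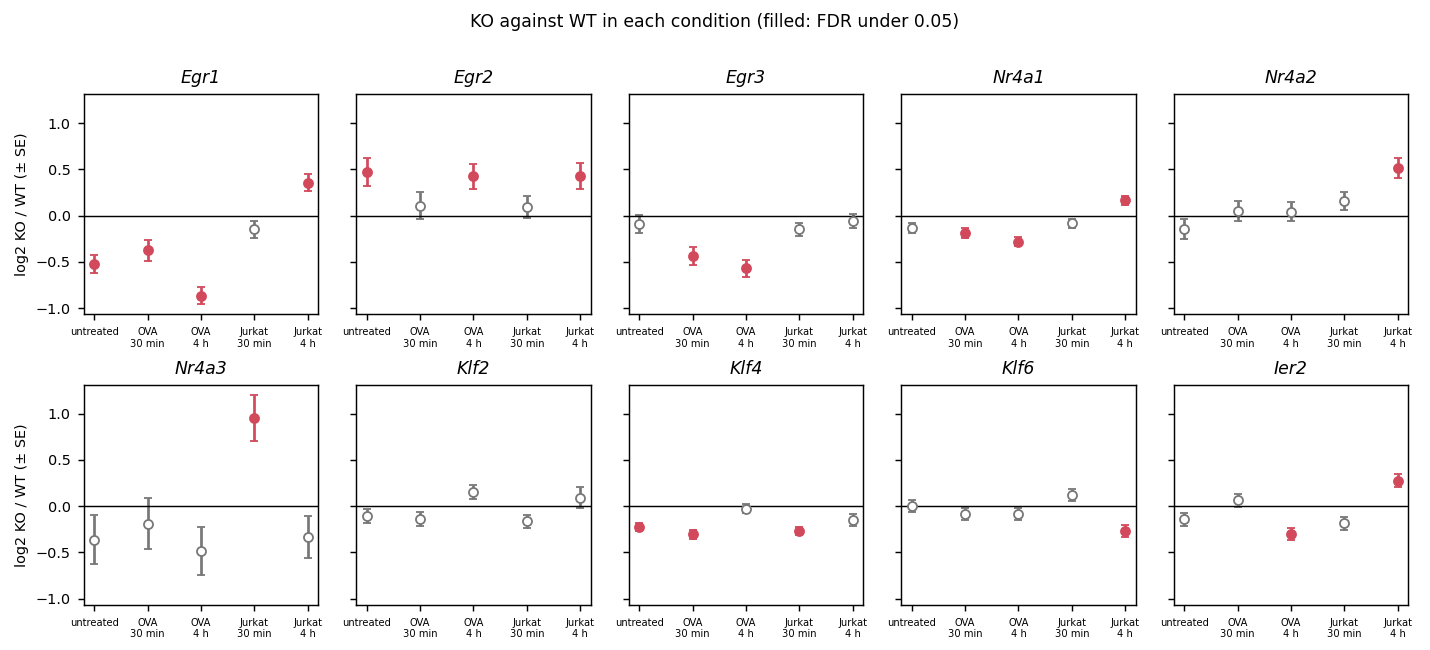
Log2 ratio of KO to WT for each member (panels) in the 5 conditions (x axis); points are fitted values, bars the SE, and filled red points have FDR under 0.05. Egr1 lies below 0 in untreated and OVA-treated cells (-0.52, -0.38 and -0.86) and above 0 with Jurkat cells for 4 h (0.36).

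Egr1 showed the clearest change of side. It was lower in KO in untreated cells (log2 -0.52, SE 0.094, FDR 0.000371), with OVA at 30 min (log2 -0.38, SE 0.11, FDR 0.0233) and most of all with OVA at 4 h (log2 -0.86, SE 0.095, FDR 2.13e-07), where KO libraries reached 0.55 of the WT level. With Jurkat cells at 30 min the difference did not pass (log2 -0.15, FDR 0.341). At 4 h of Jurkat cells all 3 KO libraries were above all 3 WT libraries (log2 0.36, SE 0.094, FDR 0.00619). The call with OVA at 30 min was lost without KO OVA 30 min replicate 1 or 2 or WT OVA 30 min replicate 1 (log2 -0.39, -0.34 and -0.34, FDR 0.0555 to 0.156). At 4 h of Jurkat cells the call was lost without KO Jurkat 4 h replicate 3 (log2 0.28, FDR 0.0535).

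Egr3 was lower in KO with OVA at both times, at 0.741 of the WT level at 30 min (log2 -0.43, SE 0.097, FDR 0.00325) and 0.674 at 4 h (log2 -0.57, SE 0.088, FDR 3.27e-05), with no overlap of libraries. It did not differ by the test in the other 3 conditions (FDR 0.206 to 0.672). Egr2 went the other way, with higher KO values in untreated cells (log2 0.47, SE 0.15, FDR 0.0431), with OVA at 4 h (log2 0.42, SE 0.14, FDR 0.0387) and with Jurkat cells at 4 h (log2 0.43, SE 0.14, FDR 0.0277). These calls rest on few libraries. In untreated cells the KO libraries, at 12.9, 8.87 and 7.85 CPM, overlapped those of WT, and without KO untreated replicate 1 the value was 0.24 (FDR 0.417). That call was also lost without WT untreated replicate 2 or 3 (log2 0.45 and 0.41, FDR 0.132 and 0.159). With OVA at 4 h it was lost for 5 of 6 left-out libraries, all but WT OVA 4 h replicate 2 (log2 0.31 to 0.47, FDR 0.0513 to 0.197). With Jurkat cells at 4 h it was lost for 5 of 6, all but KO Jurkat 4 h replicate 3 (log2 0.40 to 0.45, FDR 0.0511 to 0.0954).

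Nr4a1 was lower in KO with OVA, at 30 min (log2 -0.18, SE 0.054, FDR 0.0241) and at 4 h (log2 -0.28, SE 0.054, FDR 0.000514), and higher in KO with Jurkat cells at 4 h (log2 0.17, SE 0.049, FDR 0.0143). The value at 30 min lost its call without any 1 of the 6 libraries (log2 -0.20 to -0.18, FDR 0.0501 to 0.0774) and on total counts (FDR 0.0616). The value at 4 h of Jurkat cells lost it without KO Jurkat 4 h replicate 1 or WT Jurkat 4 h replicate 2 (log2 0.15 in both, FDR 0.0508 and 0.061). In untreated cells Nr4a1 had no call (log2 -0.14, FDR 0.111; -0.19 and FDR 0.0286 without WT untreated replicate 1). Nr4a2 was 1.43-fold higher in KO with Jurkat cells at 4 h (log2 0.51, SE 0.10, FDR 0.00063), where every KO library was above every WT library, and had no call elsewhere (FDR 0.36 to 0.912).

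For Nr4a3 the joint fit called KO higher with Jurkat cells at 30 min (log2 0.96, SE 0.25, FDR 0.0143), with overlapping libraries. Without the library that stood apart the value was 0.17 (SE 0.12, FDR 0.456), and without WT Jurkat 30 min replicate 3 it was 0.92 (FDR 0.0512). Leaving that KO library out also narrowed the error elsewhere. Nr4a3 was then lower in KO in untreated cells (log2 -0.36, SE 0.11, FDR 0.0323), with OVA at 4 h (log2 -0.48, SE 0.11, FDR 0.00201) and with Jurkat cells at 4 h (log2 -0.33, SE 0.090, FDR 0.00712), 3 conditions in which no KO library overlapped a WT library; with it the FDR was 0.474, 0.256 and 0.305.

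Klf4 was lower in KO in untreated cells (log2 -0.23, SE 0.044, FDR 0.000831), with OVA at 30 min (log2 -0.30, SE 0.045, FDR 3.67e-05) and with Jurkat cells at 30 min (log2 -0.27, SE 0.044, FDR 0.000189), each time without overlap. With OVA at 4 h the genotypes were level (log2 -0.03, FDR 0.786), and at 4 h of Jurkat cells the value was -0.15 (FDR 0.115; -0.21 and FDR 0.0398 without WT Jurkat 4 h replicate 1). Klf2 had no call in any condition (FDR 0.171 to 0.608). With OVA at 4 h every KO library was above every WT library for Klf2. A fit of only the groups compared gave a call there (log2 0.15, FDR 0.0126). Klf6 was lower in KO only with Jurkat cells at 4 h among the 5 conditions (log2 -0.27, SE 0.061, FDR 0.00196). Ier2 was lower in KO with OVA at 4 h (log2 -0.30, SE 0.068, FDR 0.0027) and higher with Jurkat cells at 4 h (log2 0.27, SE 0.070, FDR 0.00504).

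Markers of other cells differed between the genotypes as well. The 7 basophil and mast cell markers summed to 22.2 to 28.6 CPM in untreated WT libraries and to 56.6 to 87.5 CPM in untreated KO libraries, with none at 0; 5 of 7 were above 1 CPM in WT and 7 of 7 in KO. The 6 stromal markers, 5 of them above 1 CPM in both genotypes, summed to 537 to 617 CPM in WT and 686 to 862 CPM in KO. The 9 plasmacytoid dendritic cell markers summed to 3055 to 3117 CPM in WT and 2649 to 2821 CPM in KO. The part of these cells in the members' genotype differences was not tested.

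The genotypes' responses were compared with each other by testing the KO response less the WT response. For Jurkat cells at 4 h 4 members passed, each with the larger response in KO, against 4.26% of all genes in either direction. On total counts the share of all such calls that were higher in KO went from 40.3% to 76.8%, and the same 4 members passed in the same direction. Egr1 rose 1.82-fold in KO and stood at 0.989 of the untreated level in WT, a difference of 0.88 on the log2 scale (SE 0.13, FDR 0.000271). Nr4a2 rose 1.87-fold and 1.18-fold (difference 0.66, SE 0.15, FDR 0.0111), Ier2 showed 1.36-fold and 1.02-fold (difference 0.41, SE 0.098, FDR 0.0152), and Nr4a1 rose 2.91-fold and 2.36-fold (difference 0.30, SE 0.073, FDR 0.0161). For Egr1 part of the difference lies in the lower start of the untreated KO cells, 34.3 against 49.1 CPM, beside the higher end, 62.3 against 48.6 CPM. Nr4a1, Nr4a2 and Ier2 also started lower in untreated KO cells, without a call against WT (log2 -0.15 to -0.14, FDR 0.111 to 0.478). The Nr4a1 call was lost without KO untreated replicate 1 (0.27, FDR 0.0544) or WT untreated replicate 3 (0.26, FDR 0.0555), and the Ier2 call without WT Jurkat 4 h replicate 2 (0.37, FDR 0.0525) or WT untreated replicate 2 (0.35, FDR 0.0574). Klf6 had the opposite sign, a smaller rise in KO (difference -0.27, SE 0.087, FDR 0.0734). It passed with DESeq2 (FDR 0.0409), without WT Jurkat 4 h replicate 1 (-0.35, FDR 0.0155), without WT untreated replicate 1 (-0.32, FDR 0.0384) and without the library that stood apart (-0.27, FDR 0.0473). The fold changes of Nr4a3, Klf2, Klf4, Egr2 and Egr3 at 4 h gave no call of a difference (FDR 0.46 to 0.98); for Egr3 the difference was 0.03 ± 0.13 (SE).

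The other 3 responses gave no member a call of a genotype difference in edgeR, nor in DESeq2. Of all genes 0% passed for OVA at 30 min, 0.0405% for OVA at 4 h and 0.00675% for Jurkat cells at 30 min. For Jurkat cells at 30 min Nr4a3 had a difference of 1.32 (FDR 0.36). That value became 1.64 (FDR 0.00632) without KO Jurkat 30 min replicate 2 and 0.53 (FDR 0.571) without replicate 1.

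Ordering the 10 groups by mean level shows which neighbours were apart, meaning that their libraries did not overlap. Nr4a1 had 6 such gaps among its 9 neighbouring pairs, Egr3 5, Egr1 and Klf4 4, Nr4a3 3, Klf2 and Klf6 2, and Egr2, Nr4a2 and Ier2 1. On total counts Egr2 had 3 and Ier2 2, and the other members kept their number. For Egr1 the order ran from 17.4 CPM (KO, OVA 30 min) through 22.4 (WT, OVA 30 min) to 74.4 and 82.4 CPM (KO and WT, Jurkat cells 30 min), the last 2 overlapping. For Egr3 it ran from 4.24 and 4.50 CPM in untreated KO and WT cells, which overlapped, to 24.7 and 27.3 CPM in KO and WT with Jurkat cells at 30 min, which also overlapped. The ratio of highest to lowest group was 96.4 for Nr4a3, 15.1 for Klf4, 8.18 for Klf2, 6.45 for Egr3, 4.72 for Egr1, 4.64 for Klf6, 3.78 for Egr2, 3.37 for Nr4a1, 1.87 for Nr4a2 and 1.57 for Ier2.

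Likeness was described as Pearson's r of log2 CPM group means, without a test, since the groups share genotypes, treatments and library scaling. Over all 10 groups Klf2 and Klf4 had r of 0.997, and Nr4a3 and Klf6 0.994. Both were lower without the 2 groups with Jurkat cells for 4 h, at 0.745 and 0.840. Egr3 and Nr4a1 had r of 0.958 over the 10 groups. Among 10404 other genes, the 2 most like Nr4a3 were Il12b (0.998), a subunit of interleukin 12, and Tnfsf9 (0.998), a co-stimulatory ligand. Klf6 was most like Mxd1 and Bcl9, Klf2 most like Papd5 and Alox5ap, and Klf4 most like Hpgd and Fam69a, each with r of 0.999. Egr2 was most like Srf (0.977), the gene of serum response factor, and kept that value, 0.977, over the 8 groups without Jurkat cells at 4 h, where Arf6 stood first (0.985). Egr3 was most like Pim3 (0.932) and Fos (0.926), and over 8 groups most like Dusp1 (0.996), a phosphatase of MAP kinases, and Polr3d (0.989). Egr1 was most like Ficd (0.917) and Fos (0.906), and over 8 groups most like Plcl2 (0.991) and Dars (0.978). For Nr4a1 the nearest were Sp2 (0.941) and Fdxacb1 (0.940), for Nr4a2 Zbtb22 (0.926) and Lonp1 (0.916), and for Ier2 Prmt6 (0.922) and Fos (0.886). Over the 8 groups Nr4a1 was most like Mphosph6 (0.986) and Uqcrfs1 (0.977), Nr4a2 most like Elac2 (0.989) and Rbbp4 (0.989), and Ier2 most like Dus4l (0.986) and Med28 (0.983). Nr4a3 was there most like Rabep1 (0.979) and Lrrc49 (0.942), Klf2 most like Rnf170 (0.939) and Smim24 (0.929), Klf4 most like March7 (0.987) and Khk (0.975), and Klf6 most like Cap1 (0.956) and Pak2 (0.929). All r values include the library that stood apart, which touches Nr4a3 most, and were not taken without it.

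The other genes of the same early class moved in the same comparisons. Of 28 other early-response genes, such as the AP-1 factors, dual-specificity phosphatases and Ptgs2, 21 were higher and 1 lower after 30 min with Jurkat cells in WT, with a median log2 change of 0.59 against 0.01 over all genes tested, of which 14.2% were higher and 14.5% lower. At 4 h 23 were higher and 2 lower, against 38.9% and 40.6% of all genes, with a median of 2.05 against -0.02. In KO the counts were 19 and 2 at 30 min, against 8.72% and 8.26%, and 23 and 4 at 4 h, against 37.5% and 41%. Ptgs2, which encodes an inducible cyclooxygenase, went from 1.91 to 282 CPM and Dusp2 from 20.6 to 460 CPM by 4 h in WT, while Dusp6, a phosphatase that acts on ERK, went from 80.9 to 26.2 CPM. With OVA in WT 10 were higher and 2 lower at 30 min, against 5.51% and 5.15% of all genes, and 19 and 3 at 4 h, against 11.9% and 11.7%. Fosb, an AP-1 factor, fell with OVA at 30 min as Egr1 did, from 8.92 to 3.69 CPM (log2 -1.27, SE 0.12, FDR 2.35e-08). Between genotypes the list leaned to lower KO levels with OVA at 4 h, where 15 were lower and 2 higher, against 6.35% and 6.22% of all genes, and the median was -0.20 against -0.002 over all genes; Fosb had 2.09 CPM in KO against 5.16 CPM in WT. With Jurkat cells at 4 h 6 were higher and 6 lower in KO, against 9.37% and 13.5%, with a median of 0.02. By the test of responses, 1 was larger and 2 were smaller in KO than in WT, against 1.72% and 2.55% of all genes.

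Direct partners of the members were tested in 4 of 6 cases. Nab1 and Nab2, corepressors that bind EGR factors, rose with Jurkat cells at 4 h in WT, Nab2 from 14.9 to 37.4 CPM and Nab1 from 100 to 181 CPM. Rxra and Rxrb, nuclear receptors that pair with NR4A1 and NR4A2, fell, from 35.6 to 16.4 and from 126 to 60.5 CPM; the same 4 calls were made in KO, in comparisons where most genes passed. Of 14 other KLF genes 11 were tested, and 4 were higher and 4 lower at 4 h in either genotype, near the shares of all genes given above for these comparisons. At 30 min with Jurkat cells in WT 2 of these 11 were higher and 2 lower, against 14.2% and 14.5% of all genes. Klf10 and Klf11, known as early targets of TGF-beta, rose there, from 27.6 to 44.6 and from 11.8 to 17.0 CPM. Klf13 and Klf16 fell by 4 h in WT, from 166 to 81.7 and from 36.5 to 21.8 CPM. Of 21 upstream kinases and factors tested from a list of 23, 1 was higher and 2 lower at 30 min in WT, and 6 were higher and 11 lower at 4 h, against 14.2% and 14.5% and then 38.9% and 40.6% of all genes. Map2k1, a kinase that activates ERK, went from 151 to 372 CPM and Mef2d from 230 to 101 CPM. Of 4 genes known as KLF2 targets, 1 was higher and 2 lower with Jurkat cells at 4 h in WT, where 38.9% and 40.6% of all genes were, so the count says nothing particular of these genes. The integrin gene Itgb7 went from 891 to 188 CPM and the thrombomodulin gene Thbd from 6.60 to 1.09 CPM, while S1pr1, a receptor that lets lymphocytes leave tissue, went up from 7.64 to 12.2 CPM. In those 4 h comparisons scaling on total counts lowers the median of all genes by 0.34 to 0.40 on the log2 scale, and small rises are read against that shift.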

How the data were processed

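RNA was sequenced from 30 samples in 10 groups of 3, grouped by the genotype and treatment in the labels. The authors deposited whole-number read counts per gene with symbols, Entrez identifiers and mm10 intervals, per the file headers. STAR 2.5, Subread featureCounts 1.5.0-p1 and DESeq2 are named in the submitters' processing notes, without their settings. Per the labels' protocols, Trizol and column extraction with DNase preceded TruSeq v2 libraries. The sources used here do not give the use of strand in counting, the annotation or the treatment of human reads.

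Counts were analysed as deposited with edgeR 4.0.16 in R 4.3.3: filterByExpr by group (14808 of 25611 genes, 99.99% of counts), TMM, and the quasi-likelihood F test, two-sided, in 1 model of 30 libraries with a mean per group. Benjamini-Hochberg adjustment ran over all genes tested in each of 25 contrasts, and FDR under 0.05 was a call. SE is the size of the log2 value over the root of its F statistic. The procedure was tested on simulated data. All 10 members are named; list genes and similar genes were taken by size of change and by r. The members and lists were chosen with earlier results of these data known. Alternatives were DESeq2 1.42.0, other scalings and filters, a replicate block, only the groups compared, and each library left out. Totals of 9.73 to 51.6 M counts per library gave each member at least 54 counts in every library. Promoter sequences came from RefSeq (GRCm38.p6) and exon lengths from GENCODE.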

Additional observations from a re-analysis of the deposited data

Results flagged for a closer look

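A difference between the genotypes in the response to Jurkat cells at 4 h, by a test of the difference itself, singled out 4 members. The log2 response of KO less that of WT was 0.88 for Egr1, 0.66 for Nr4a2, 0.41 for Ier2 and 0.30 for Nr4a1, with adjusted p from edgeR of 0.000271, 0.0111, 0.0152 and 0.0161. These 4 genes were also among the 5 members called higher in KO than in WT with Jurkat cells at 4 h, against 9.37% of all genes. That comparison shares its libraries with the test of responses, and it compares levels and not responses. The calls of Nr4a1 and Ier2 were lost without some single libraries (FDR 0.0525 to 0.0574), as given above.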

How the results depend on the processing

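Of 250 tests of members, 128 were calls. Of these 117 held under every alternative fit with all libraries, 106 under every left-out library and 104 under all. Somewhere, 24 tests without a call gained one in the same direction. The number of calls in each of the 6 families stayed within 1.5 times its value under each alternative run. Among tests with a call in the main setting or the alternative, directions turned in 5, all on total counts: Nr4a2 and Ier2 with Jurkat cells at 4 h against untreated WT cells (-0.16 and -0.37), Nr4a2 at 4 h against 30 min of Jurkat cells in KO (-0.30, against 0.03 with no call), and, against OVA at 4 h, Nr4a2 in WT (-0.0757) and Ier2 in KO (-0.14). Without KO Jurkat 30 min replicate 1, an alternative chosen after seeing the data, 127 of 128 calls held and the families held 22, 24, 24, 27, 32 and 5 calls, against 20, 23, 23, 26, 32 and 4.

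The labels do not say whether replicate numbers pair the libraries. Within a genotype, deviations of same-numbered libraries correlated at a median of 0.0148 (6 of 60 pairs over 0.1). Libraries with different numbers gave -0.0064 there (2 of 120). Between genotypes the medians were -0.0025 (5 of 75) and 0.0041 (7 of 150) for same and different numbers. A slight likeness of same-numbered libraries within a genotype therefore stays possible. With the replicate block across groups 128 of 128 calls held, in counts of 20, 23, 23, 26, 32 and 4, and with the block within genotype 108 of 108 held.

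Depth limits Nr4a2 most, at 54 to 317 counts per library. Total RNA per cell was not measured, so small rises with Jurkat cells at 4 h depend on the scaling.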
